A study of Homo sapiens and Mus musculus with 10 samples.

Results

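The genes that make, receive and block Wnt signals outside the cell were examined as 1 family of 40 among the 19970 protein-coding genes of the human autosomes and X chromosome. Members were taken from GENCODE release 44 by symbol: 19 WNT ligands, 10 Frizzled receptors (FZD1 to FZD10), the 2 co-receptors LRP5 and LRP6, and 9 secreted antagonists (DKK1 to DKK4, SFRP1, SFRP2, SFRP4, SFRP5 and WIF1). The study measured open chromatin by short-read bulk ATAC-seq, in which the Tn5 transposase cuts and tags DNA that nucleosomes leave exposed. The 8 human libraries came from 4 established lines with 2 replicates each: GM12878 (B-lymphoblastoid cells immortalised with Epstein-Barr virus), HEK293T (embryonic kidney cells carrying adenovirus genes and the SV40 large T antigen), HFF1 (foreskin fibroblasts) and K562 (an erythroleukaemia line). No treatment is given for any of them, and each line stands for 1 origin only. Nothing in the labels says that replicates came from separate cultures, so the spread between them may be technical.

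WNT proteins are secreted, lipid-modified ligands that bind a Frizzled receptor together with LRP5 or LRP6 and so keep beta-catenin from being degraded, which lets it act with TCF/LEF factors on target genes. Some ligands, such as WNT5A and WNT11, are better known for signalling through Frizzled receptors without beta-catenin. SFRP proteins and WIF1 bind the ligands themselves, whereas DKK1, DKK2 and DKK4 bind LRP5 and LRP6. DKK3 is counted with the antagonists by its symbol. Several antagonist genes are known to be silenced by DNA methylation in tumours and leukaemias.

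The sequences that the results turn on are shown first. FZD10, a receptor gene on chromosome 12, and SFRP2, an antagonist gene on chromosome 4, each had promoter peaks in a single line, and DKK3, an antagonist gene on chromosome 11, had most of its peaks in HFF1. The FZD10 stretch is the 101 bases around the HEK293T summit at chr12:130161739-130161839 (hg38, plus strand), upstream of the gene and inside its antisense partner FZD10-AS1. Capitals there mark CTTTGAA or its complement TTCAAAG, letters of a TCF/LEF motif. The SFRP2 stretch at chr4:153788703-153788803 (hg38, minus strand) lies in coding sequence of an SFRP2 exon, and the DKK3 stretch at chr11:11968780-11968880 (hg38, minus strand) lies in the gene outside any annotated exon, 84 bases upstream of an internal start site at its summit. Capitals in both mark CpG.
FZD10 peak in HEK293T: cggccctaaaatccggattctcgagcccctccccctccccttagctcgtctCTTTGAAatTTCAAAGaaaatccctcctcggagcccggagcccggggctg
SFRP2 peak in HFF1: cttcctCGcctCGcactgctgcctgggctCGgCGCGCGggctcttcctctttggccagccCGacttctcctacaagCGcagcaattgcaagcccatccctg
DKK3 peak in HFF1: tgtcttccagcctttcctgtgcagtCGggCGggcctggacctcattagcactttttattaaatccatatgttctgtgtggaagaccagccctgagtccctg

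Of the 40 members, 27 were matched by symbol in the RefSeq promoter table (GRCh38.p14, 250 bases before to 50 after a start). DKK1 and WIF1 are shown because K562 alone lacked their peak, and WNT3A and WNT8B because no library had one. Their intervals are chr10:52314031-52314330 (plus), chr12:65121256-65121555 (minus), chr1:228006748-228007047 (plus) and chr10:100462759-100463058 (plus), with CpG in capitals.
DKK1 promoter: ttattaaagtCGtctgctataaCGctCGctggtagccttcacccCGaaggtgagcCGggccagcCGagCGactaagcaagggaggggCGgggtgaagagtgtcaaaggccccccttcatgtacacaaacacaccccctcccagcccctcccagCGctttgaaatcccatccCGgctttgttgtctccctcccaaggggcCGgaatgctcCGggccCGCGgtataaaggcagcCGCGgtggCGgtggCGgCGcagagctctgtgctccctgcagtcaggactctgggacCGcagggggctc
WIF1 promoter: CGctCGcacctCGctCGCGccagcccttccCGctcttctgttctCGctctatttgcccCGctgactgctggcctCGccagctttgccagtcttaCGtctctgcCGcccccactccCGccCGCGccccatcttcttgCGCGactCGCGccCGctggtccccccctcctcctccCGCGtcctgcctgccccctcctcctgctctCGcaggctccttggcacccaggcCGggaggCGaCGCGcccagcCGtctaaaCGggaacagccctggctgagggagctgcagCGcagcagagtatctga
WNT3A promoter: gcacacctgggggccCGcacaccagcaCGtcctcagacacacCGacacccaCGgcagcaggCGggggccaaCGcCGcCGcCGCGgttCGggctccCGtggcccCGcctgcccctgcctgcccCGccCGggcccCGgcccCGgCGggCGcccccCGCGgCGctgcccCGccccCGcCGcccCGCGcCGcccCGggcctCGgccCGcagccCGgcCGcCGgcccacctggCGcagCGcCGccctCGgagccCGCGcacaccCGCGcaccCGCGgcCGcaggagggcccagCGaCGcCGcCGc
WNT8B promoter: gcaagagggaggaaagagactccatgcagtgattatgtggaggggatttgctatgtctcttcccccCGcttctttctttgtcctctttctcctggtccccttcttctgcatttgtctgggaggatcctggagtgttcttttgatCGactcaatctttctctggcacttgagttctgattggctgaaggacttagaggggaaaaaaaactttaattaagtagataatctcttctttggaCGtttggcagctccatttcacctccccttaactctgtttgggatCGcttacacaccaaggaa

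The deposited peak lists held 52137 to 127359 peaks per library and were not equally deep. The background level recovered from the lists, in reads per window, was 1.72 ± 0.0143 in GM12878, 0.465 ± 0.000804 in HEK293T, 2.25 ± 0.263 in HFF1 and 2.09 ± 0.170 in K562 (SD, n = 2 each). The read pileup at the median peak summit was 16 in both HEK293T libraries and 30 to 35 in the other 6. Peak names carry 1 prefix in GM12878 and another in the other lines, so that prefix and line cannot be told apart. Promoter peaks of fixed marker genes were present in both replicates for 7 of 7 B-lymphoid genes in GM12878, 7 of 7 fibroblast genes in HFF1 and 5 of 7 erythroid genes in K562 (KLF1 and HBG1 had none). The kidney development genes reported here did not all separate HEK293T from HFF1: PAX2 and LHX1 were called in HEK293T alone, EYA1 and SALL1 in both lines, and PAX8 in the 3 other lines and not in HEK293T. A promoter peak is one that overlaps the 1 kb either side of any annotated start site by at least 1 bp, and a call in a line required one in each of its replicates.

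As deposited, HFF1 had promoter peaks at most of the family and the blood lines at fewest. HFF1 was called at 34 of 40 members (85.0%, against 76.2% of all genes) and HEK293T at 31 (77.5%, against 67.8%). GM12878 and K562 were each called at 25 (62.5%), against 71.9% and 70.4% of all genes. The lines differed in the ligands and antagonists, while the receptors were open almost everywhere. WNT ligands were called at 9 of 19 in GM12878, 13 in HEK293T, 14 in HFF1 and 12 in K562. Frizzled receptors were called at 9, 10, 9 and 8 of 10 in the same order, and LRP5 and LRP6 in all 4 lines. In HEK293T, LRP5 had no peak at the gene start. Its call there came from an internal start site 134390 bp further along, with 273 and 177 bp covered. Antagonists were called at 5 of 9 in GM12878, 6 in HEK293T, 9 in HFF1 and 3 in K562.

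**Figure D1:**
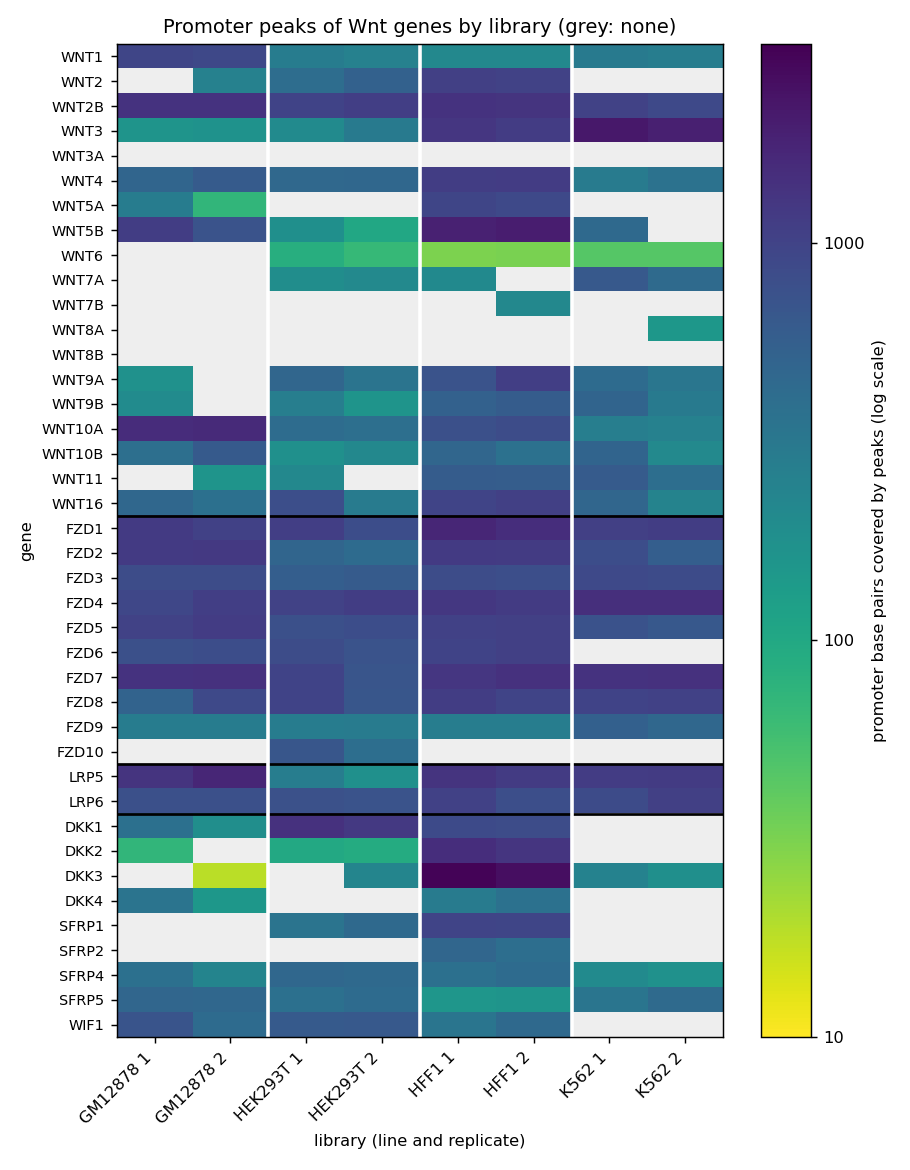
Base pairs of each member's promoter windows that peaks cover, on a log colour scale, for 40 genes (rows, grouped by role from ligands to antagonists) in 8 libraries (columns), with grey for no peak. Frizzled and LRP rows are filled nearly throughout, whereas ligand and antagonist rows hold most of the grey cells, and K562 has peaks at 3 of 9 antagonists.

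With background levels matched, called matched depth here, the order of the lines changed and HEK293T came first. Pileups of the other lines were thinned at random to the HEK293T background level and each peak was kept if it still passed the HEK293T threshold. HEK293T then kept its 31 members (77.5%), HFF1 had 22 (55.0%), GM12878 20 (50.0%) and K562 17 (42.5%). In HFF1, SFRP2, SFRP4, WIF1, WNT1, WNT2, WNT9B, WNT10B, WNT11 and WNT16 lost the call but kept a peak in 1 replicate. So did DKK4, WNT3 and WNT4 in GM12878 and DKK3, SFRP4, SFRP5, WNT4, WNT9B, WNT10A and WNT16 in K562. Peaks were lost in both replicates at DKK4, SFRP5 and WNT6 in HFF1, SFRP5 and WNT5A in GM12878, and WNT7A in K562. Over all genes the shares were 67.8%, 67.8%, 67.4% and 63.0% in that order, so 3 of the lines were level genome-wide. The Frizzled counts were unchanged by thinning at 9 in GM12878, 10 in HEK293T, 9 in HFF1 and 8 in K562. WNT ligands stood at 6 in GM12878, 13 in HEK293T, 7 in HFF1 and 7 in K562, and antagonists at 3, 6, 4 and 0. After thinning, 6 members had peaks in both HEK293T replicates and in no GM12878 library (DKK2, FZD10, SFRP1, SFRP5, WNT6 and WNT7A; 5.15% of all genes) and none the other way (4.83% of all genes). For HEK293T against K562 these counts were 9 (5.88% of all genes) and 0 (2.79%), and for HEK293T against HFF1 4 (2.75%) and 1 (4.23%), the latter WNT5A, which was then also restricted to HFF1 (1.23%). Thinning was drawn once and acts only on deposited peaks, so a thinned list can lose peaks but not gain any. It did not narrow the peaks it kept. Peak width also depends on depth, and the covered lengths printed per gene are as deposited. The thinned lists still differed in size, with 46065 and 46634 peaks in K562, 52137 and 52438 in HEK293T and 74459 to 76804 in GM12878 and HFF1.

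**Figure D2:**
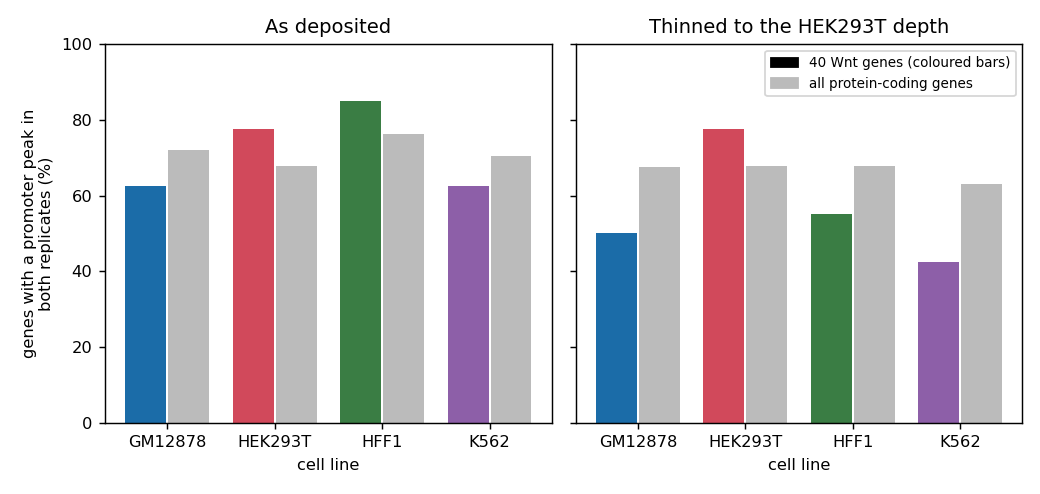
Share of genes with a promoter peak in both replicates (vertical axis, percent) in each line, for the 40 Wnt genes in colour and all protein-coding genes in grey, as deposited (left) and with pileups thinned to the HEK293T depth (right). The HFF1 bar falls from 85.0% to 55.0% while its grey bar falls from 76.2% to 67.8%, and HEK293T stays at 77.5%.

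Nearly as many members were shared by all lines as not. Both replicates of all 4 lines were called at 19 members, against 59.7% of all genes: WNT1, WNT2B, WNT3, WNT4, WNT10A, WNT10B, WNT16, FZD1, FZD2, FZD3, FZD4, FZD5, FZD7, FZD8, FZD9, LRP5, LRP6, SFRP4 and SFRP5. At matched depth this set had 11 members, against 53.9% of all genes, and they were 8 Frizzled genes, LRP5, LRP6 and WNT2B. A call counts a peak at any start site, so the lines need not share a window. As deposited, 14 members were called in all 4 lines with the gene's 5′ end only. At the gene start, SFRP4 and WNT16 had no peak in any library and WNT3 had peaks in HFF1 only. WNT10A had none there in HEK293T or K562, and LRP5 none in HEK293T. Calls in 3 lines were made at 7 members (8.76% of all genes), in 2 lines at 8 (6.85%), in 1 line at 2 (7.62%) and in no line at 4 (17.1%). None was restricted to GM12878 (1.4% of all genes) or K562 (1.12%). The 4 were WNT3A, WNT7B, WNT8A and WNT8B. WNT3A and WNT8B had no promoter peak in any library, as had 14.7% of all genes.

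FZD10 was open in HEK293T alone. It encodes a Frizzled receptor of limited adult expression and lies at chr12:130162459-130165740 (hg38, plus strand). Peaks covered 677 and 394 bp of its promoter in the HEK293T replicates and 0 bp in the other 6 libraries. The shared promoter peak had its summit 670 and 617 bp upstream of the gene start, with a deposited fold over local background of 8.35 and 6.90 and a pileup of 26 and 21 reads, and replicate 1 had a further peak 53 bp after a start. Among all genes, 0.336% had such a promoter pattern, with both HEK293T replicates and no other library. Within 50 kb, FZD10 had 6 and 4 peaks in HEK293T, 1 and 2 in K562, and none in GM12878 or HFF1, where 3.85% and 4.99% of all genes had none. The K562 peaks of the replicates lay at different places. HEK293T was also the shallowest line, and at matched depth FZD10 and WNT7A had promoter peaks in HEK293T alone (0.966% of all genes).

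The sequence of the FZD10 summit printed above holds CTTTGAA and TTCAAAG separated by a pair of bases. The letters searched were CTTTGAA and CTTTGAT on both strands, and 1.74% of the 52438 windows of 101 bp at summits of HEK293T replicate 1 held at least 1 of them. Of the 27 matched RefSeq promoters only that of DKK1 held them (ctttgaa, near the middle of the printed sequence), against 5.48% of 15322 promoters. A match describes letters and not binding.

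SFRP2 was open in HFF1 alone. It encodes a secreted protein that shares the ligand-binding domain of Frizzled receptors and lies at chr4:153780591-153789083 (hg38, minus strand). Its promoter peak covered 468 and 394 bp in the HFF1 replicates and nothing in the other 6 libraries, a pattern of 2.05% of all genes. The summits lay 330 and 320 bp downstream of the start, with pileups of 32 and 24 reads and folds of 4.81 and 4.53. At matched depth this peak was not called in both HFF1 replicates. SFRP2 had 3 to 11 peaks within 50 kb in every library.

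Antagonist calls ranged from 3 of 9 in K562 to 9 of 9 in HFF1. DKK1, an inhibitor that binds LRP5 and LRP6, lies at chr10:52314281-52318042 (hg38, plus strand) and had 376 and 185 bp of promoter covered in GM12878, 1384 and 1223 bp in HEK293T, 863 and 827 bp in HFF1 and 0 bp in both K562 libraries. Its pileup was 24 and 19 reads in GM12878, 90 and 75 in HEK293T and 74 and 70 in HFF1, so HEK293T was high despite its lower background. The groups did not overlap, and covered length differed between lines (eta squared, the share of variance between lines, 0.985, exact permutation p = 0.00952, adjusted p = 0.0408). The position also differed: summits were 4 and 10 bp upstream of the gene start in HFF1 but 212 to 269 bp downstream in HEK293T and GM12878.

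WIF1, which binds WNT ligands, was called in the same 3 lines as deposited, with 703 and 427 bp in GM12878, 621 and 629 bp in HEK293T, 340 and 445 bp in HFF1 and 0 bp in K562. Its peaks were small, with pileups of 19 to 28 reads. With thinning WIF1 kept a peak in 1 HFF1 replicate and was no longer called there, while DKK1 kept its 3 lines. FZD6, a receptor gene on chromosome 8 known for planar cell polarity, was the other member that K562 alone lacked, with 730 to 1054 bp covered in the other 6 libraries and 0 bp in K562. Promoters called in 3 lines and without a peak in either K562 library thus numbered 3 of 40, against 1.72% of all genes. FZD6 also had no peak within 50 kb in K562, as had 5.16% of all genes, while GM12878 had 4 and 4, HEK293T 2 and 2 and HFF1 10 and 10.

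SFRP1, a tumour-silenced antagonist on chromosome 8, was open in HEK293T (348 and 441 bp) and HFF1 (971 and 943 bp) and had 0 bp in all 4 libraries of the blood lines. DKK4, also on chromosome 8, was open in GM12878 (344 and 150 bp) and HFF1 (288 and 367 bp) and not in HEK293T or K562. With thinned pileups DKK4 kept a peak in GM12878 replicate 1 only, so neither line was called. SFRP4 and SFRP5 were called in every line, with 173 to 466 bp and 155 to 474 bp covered. At matched depth K562 was called at none of the 9 antagonists, though DKK3, SFRP4 and SFRP5 kept a peak in K562 replicate 1.

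For DKK2 and DKK3 the start-site windows that held peaks differed between lines. Transcription from these starts was not measured. DKK2 has start sites 247493 bp apart in 2 windows. Its gene start had a peak in both HFF1 replicates only, with folds of 14.0 and 13.6 and pileups of 69 and 61 reads, whereas the HEK293T call (97 and 91 bp) and the peak of GM12878 replicate 1 (71 bp) lay at the edge of the internal window. HFF1 also had 3 peaks per replicate in that internal window. DKK3, a divergent member of the DKK family, lies at chr11:11956207-12009769 (hg38, minus strand) and has 5 windows of start sites. HFF1 covered 3004 and 2556 bp of them, K562 245 and 179 bp, HEK293T 0 and 232 bp and GM12878 0 and 18 bp. The window at the gene start was open in HFF1 and K562, and in 1 HEK293T replicate. Windows 29853 and 41023 bp further along were open in HFF1 alone, the latter with folds of 11.1 and 9.45, the highest of the DKK3 promoter peaks in that line, and its sequence is printed above.

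**Figure D3:**
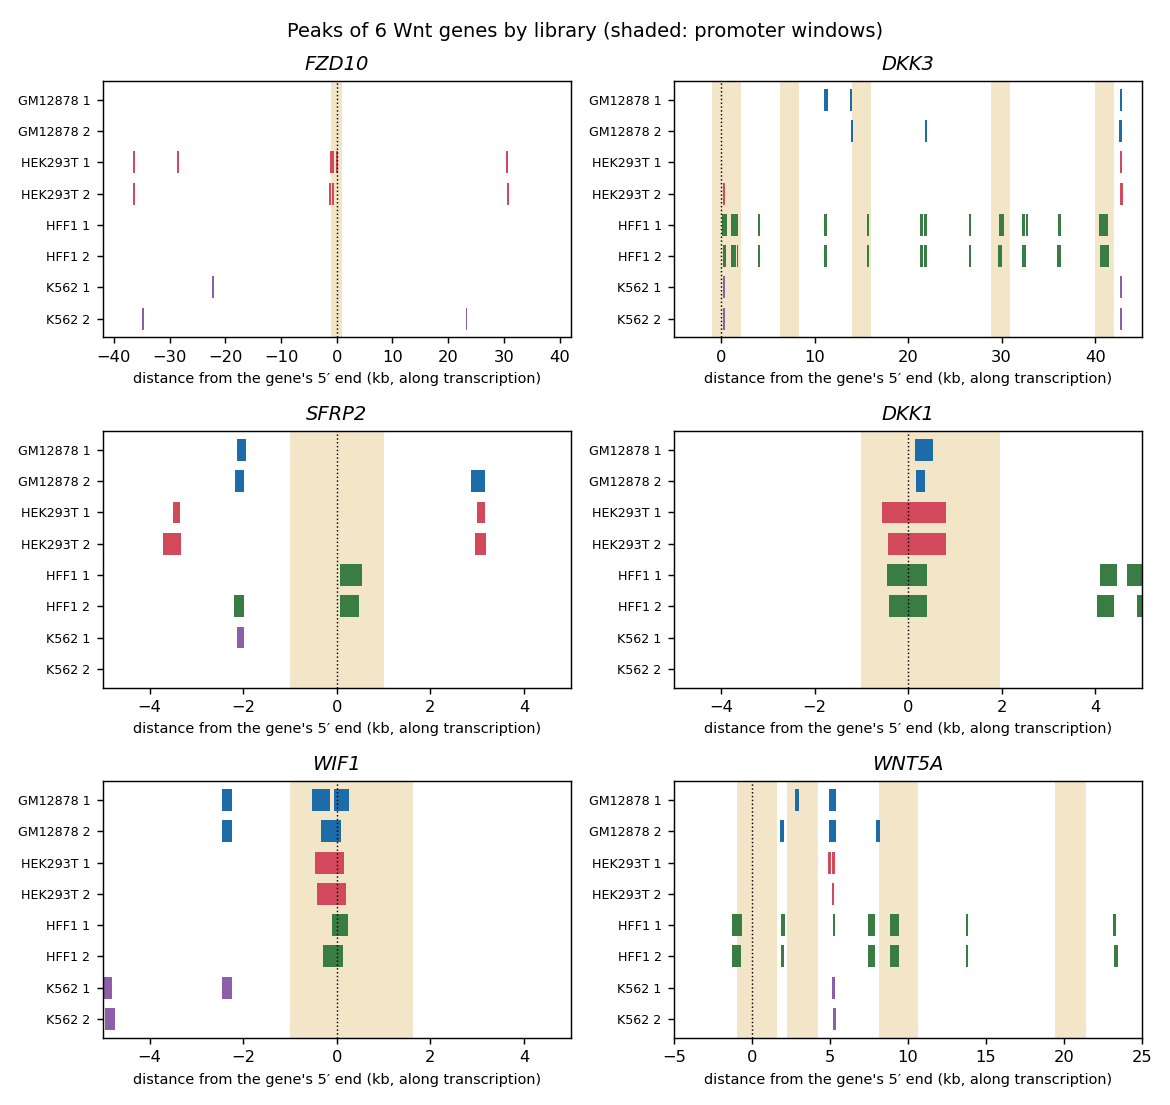
Peaks (bars) in each of 8 libraries (rows) against distance from the gene's 5′ end in kb along transcription, for FZD10, DKK3, SFRP2, DKK1, WIF1 and WNT5A, with the 1 kb promoter windows shaded. FZD10 promoter peaks are in HEK293T rows only, SFRP2 and the last 2 DKK3 windows in HFF1 rows only, and K562 rows have no bar in the DKK1 or WIF1 windows.

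Counted by start-site window in the deposited lists, HFF1 held most of the line-restricted openings. HFF1 also had the highest mean background level, and the windows were not recounted at matched depth. With thinned pileups SFRP2, WNT9B and WNT11 were not called in HFF1, where each kept a peak in 1 replicate. The 40 members have 77 separate windows; 20 had a peak in all 8 libraries and 19 in none. Windows with peaks in both HFF1 replicates and no other library numbered 10 of 77, against 4.4% of 55119 windows of all genes. They belong to DKK2, DKK3 (2 windows), SFRP2, WNT2B, WNT3, WNT5A, WNT5B, WNT9B and WNT11, and the WNT3 and WNT9B windows share 1 peak because those genes start 47 bp apart. GM12878 had 1 such window, at WNT5B (3.03% of all), HEK293T 1, at FZD10 (0.352%), and K562 1, the second window of FZD3 (1.5%).

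Among the ligands, WNT5A and WNT5B were widest in HFF1. WNT5A, at chr3:55465715-55490539 (hg38, minus strand), had 954 and 884 bp covered in HFF1, 280 and 72 bp in GM12878 and 0 bp in HEK293T and K562, and the GM12878 peaks of the replicates did not overlap each other. WNT5B, its close relative on chromosome 12, had 1852 and 1996 bp in HFF1, 1112 and 720 bp in GM12878, 179 and 100 bp in HEK293T, and 438 and 0 bp in K562. The HEK293T peaks of WNT5B likewise did not overlap between replicates. WNT2 had 1055 and 1019 bp in HFF1, 403 and 526 bp in HEK293T, 0 and 250 bp in GM12878 and none in K562.

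WNT3, WNT7A and WNT11 were called in K562 and in at least 1 other line. WNT3, a ligand of the beta-catenin pathway at chr17:46762506-46833154 (hg38, minus strand), had 2160 and 1926 bp covered in K562 and 1282 and 1143 bp in HFF1, against 162 to 305 bp in GM12878 and HEK293T. Covered length differed between lines (eta squared 0.991, exact permutation p = 0.00952, adjusted p = 0.0408), and no K562 value overlapped another line. WNT7A had 633 and 434 bp in K562, 188 and 211 bp in HEK293T, 205 and 0 bp in HFF1 and 0 bp in GM12878. WNT11 had 612 and 398 bp in K562 and 587 and 584 bp in HFF1. Both lines had peaks in the internal window, and HFF1 alone had peaks in the one at the gene start. With thinned pileups WNT7A had no peak in K562. GM12878 and HEK293T each had a WNT11 peak in 1 replicate.

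GM12878 was widest at WNT10A and WNT1. WNT10A, known from tooth and skin development, had 1528 and 1605 bp in GM12878, 777 and 838 bp in HFF1, 413 and 386 bp in HEK293T and 271 and 253 bp in K562 (eta squared 0.997, exact permutation p = 0.00952, adjusted p = 0.0408). Its neighbour WNT6, 20887 bp away by nearest start sites, had no promoter peak in GM12878 and 31 to 85 bp covered in the other 6 libraries, a pattern of 1.33% of all genes. The WNT6 peaks had summits 1042 to 1090 bp from the nearest start and touched only the edge of the window. WNT1, the founding family member, had 956 and 914 bp in GM12878 and 213 to 300 bp in the other lines (adjusted p = 0.0551 over exact permutations).

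The remaining ligands called in 3 lines were WNT9A and WNT9B. WNT9A had 718 and 1083 bp in HFF1, 472 and 344 bp in HEK293T, 420 and 333 bp in K562, and 172 and 0 bp in GM12878. WNT9B had 533 and 589 bp in HFF1, 498 and 305 bp in K562, 272 and 161 bp in HEK293T, and 196 and 0 bp in GM12878. Both were thus called in all lines but GM12878, where replicate 1 alone had a peak. WNT4, called in all 4 lines, also passed the test, with 1118 and 1138 bp in HFF1 against 291 to 611 bp elsewhere (adjusted p = 0.0408 over exact permutations).

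By the test of covered promoter length, 5 of the 38 members that varied differed between lines (DKK1, WNT3, WNT4, WNT6 and WNT10A; adjusted p = 0.0408 for each, exact permutation test), against 23.3% of 17035 genes tested. This test compares the observed grouping of 8 libraries into 4 lines with all other ways to pair them, so its smallest p is 0.00952. At an unadjusted p under 0.05 it took in 21 members, against 58.9% of all genes. All 5 calls sit at the smallest p and were lost with thinned pileups, with the replicate number as a block (0 members), and without either GM12878 replicate, HFF1 replicate 1 or either K562 replicate. The block allows fewer pairings and so has a larger smallest p, so its result cannot show whether the calls hold. A single pair of lines cannot reach a p under 0.05 by permutation of 2 libraries against 2.

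Beyond promoters, the lines differed in how many peaks surrounded each member. HFF1 had more peaks within 50 kb in both replicates than any other library at 16 members (28.2% of all genes), GM12878 at 9 (18.1%), K562 at 3 (6.65%) and HEK293T at 1, FZD10 (0.951%). Distal peaks, within 50 kb but outside the promoter windows, had a median per member of 6 and 5 in the GM12878 replicates, 3 and 3 in HEK293T, 7.5 and 7 in HFF1 and 5 and 4 in K562, beside medians of 6 and 7, 3 and 3, 8 and 7, and 6 and 5 over all genes. At matched depth the line means of these medians were 4.25 in GM12878, 3 in HEK293T, 4 in HFF1 and 3 in K562.

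WNT5B had the most peaks among ligands in HFF1 and K562, with 26 and 30 peaks within 50 kb in HFF1, 19 and 18 in K562, 17 and 24 in GM12878 and 10 and 8 in HEK293T. WNT10B and WNT1, whose start sites lie 6587 bp apart and whose peaks are largely the same, had 22 and 21 and 20 and 19 in GM12878, where WNT10B led the ligands, and WNT1 led them in HEK293T with 10 and 9. In GM12878, 9 and 9 of the distal peaks of WNT1 lay at promoters of other genes. DKK3 had 22 and 21 peaks in HFF1 against 3 to 6 in each of the other 6 libraries, a gap wider than any spread between replicates. WNT3 had 18 and 14 in K562, 12 and 11 in HFF1, 7 and 6 in GM12878 and 4 and 5 in HEK293T.

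Among receptors, FZD1 had 14 and 12 peaks in HFF1, 7 and 5 in K562, 8 and 4 in HEK293T and 5 and 5 in GM12878, and FZD4, a receptor known from retinal vessels, had 12 and 9 in HFF1, 10 and 11 in K562 and 5 in each other library. FZD3 led the receptors in GM12878 with 12 and 10, against 3 to 6 elsewhere. LRP5 had 21 and 18 in GM12878, 20 and 21 in HFF1, 13 and 10 in K562 and 4 and 4 in HEK293T, with GM12878 and HFF1 overlapping. Among antagonists, DKK4 had 10 and 9 in GM12878 against 4 to 7 elsewhere, and SFRP5 had 7 and 8 in HEK293T and 9 and 8 in K562 against 5 to 8 in the others.

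**Figure D4:**
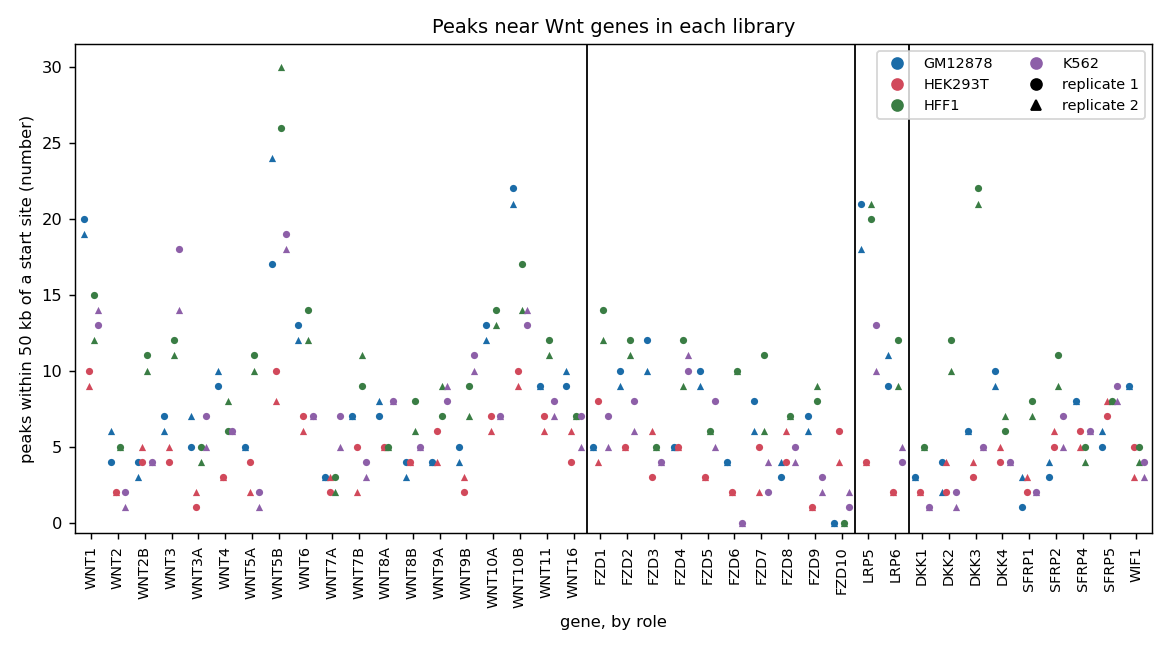
Number of peaks within 50 kb of any start site (vertical axis) for each of the 40 members (horizontal axis, by role, black lines between roles) in 8 libraries, coloured by line, with a circle for replicate 1 and a triangle for replicate 2. HFF1 points stand above the rest at DKK3, GM12878 points at WNT1 and WNT10B, and FZD10 is at 0 in GM12878 and HFF1.

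None of the 40 members passed the test on the number of peaks within 50 kb, nor did any of 19667 genes (0.0%), because the smallest adjusted p was 0.0579 (exact permutation over all pairings). At an unadjusted p under 0.05 it took in 21 members, against 55.7% of all genes, and the median eta squared was 0.936 in members and 0.937 in all genes. The base pairs covered by peaks in the same 50 kb give finer values, and on these 38 members passed (all but SFRP1 and WNT8A), against 81.6% of all genes. With 100 kb windows 24 members passed, against 62.1% of all genes. With 25 kb windows none passed.

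Distal peaks found in both replicates of 1 line and overlapping no peak of another human line were present near 35 members in HFF1 (72.2% of all genes), 28 in GM12878 (69.2%), 23 in K562 (50.2%) and 7 in HEK293T (8.94%). The 7 in HEK293T were FZD3, FZD7, FZD10, SFRP2, WNT2, WNT9A and WNT16, and FZD10 had 3 of the 9 such peaks near members in each replicate. In HFF1, DKK3 had 9 and 8 such peaks, FZD1 9 and 9 and WNT5B 9 and 10. In GM12878, LRP5 had 7 and 6, and in K562 WNT5B had 3 and 4 and WNT3, WNT4, WNT9A and WNT9B had 3 and 3 each, those of WNT3 and WNT9B being neighbours.

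The strongest such peak of each line, by deposited fold, is shown with motif letters in capitals. The GM12878 peak at chr12:1554104-1555164 lies in an intron of WNT5B, 19982 bp from the nearest start, with folds of 15.3 and 15.2 and pileups of 122 and 120 reads, and holds TGTGGT, the RUNX letters. The HEK293T peak at chr12:130193006-130193289 lies between genes, 30681 bp downstream of the nearest FZD10 start, with folds of 13.0 and 12.2 and pileups of 22 and 19, and also holds TGTGGT. The HFF1 peak at chr12:12282844-12283282 lies between genes upstream of LRP6, 15919 bp from its start, with folds of 16.1 and 11.8 and pileups of 56 and 43, and holds TGAGTCA, an AP-1 motif. The K562 peak at chr7:91299805-91300667 lies between genes, 35688 bp downstream of an FZD1 start, with folds of 14.6 and 13.2 and pileups of 98 and 95, and holds AGATAA, letters that GATA factors bind. Each sequence is the 101 bases around the summit (hg38, plus strand).
WNT5B distal peak in GM12878: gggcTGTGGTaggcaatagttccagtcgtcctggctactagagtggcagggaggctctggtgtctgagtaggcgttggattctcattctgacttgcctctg
FZD10 distal peak in HEK293T: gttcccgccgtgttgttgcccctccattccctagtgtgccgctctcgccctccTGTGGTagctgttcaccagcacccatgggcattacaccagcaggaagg
LRP6 distal peak in HFF1: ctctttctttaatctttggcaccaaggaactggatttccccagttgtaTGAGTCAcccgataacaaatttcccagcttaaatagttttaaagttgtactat
FZD1 distal peak in K562: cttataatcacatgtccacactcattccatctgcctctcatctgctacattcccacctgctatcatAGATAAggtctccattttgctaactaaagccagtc

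Motif letters were counted over all such peaks near members. AP-1 letters (TGACTCA or TGAGTCA) were held by 17 of 108 and 18 of 109 windows of 101 bp near members in HFF1 (15.7% and 16.5%), beside 18.8% and 18.7% of all HFF1-specific distal peaks. GATA letters (AGATAA) were held by 1 of 31 and 1 of 32 near members in K562 (3.23% and 3.13%), beside 21.5% and 21.1% of all K562-specific distal peaks, and that 1 is the FZD1 peak printed above. RUNX letters (TGTGGT) were held by 9 of 65 and 8 of 64 near members in GM12878 (13.8% and 12.5%), beside 15.8% in both full lists. In both HEK293T libraries they were held by 1 of 9 near members (11.1%), beside 10.3% and 10.0% of the full lists. TCF/LEF letters were held by 5 of 65 and 3 of 64 near members in GM12878 (7.69% and 4.69%, beside 4.08% and 4.12% of the full lists) and by 0 of 9 in both HEK293T libraries, beside 2.26% and 2.58%. In HFF1 they were held by 4 of 108 and 3 of 109, and in K562 by 1 of 31 and 0 of 32. Both strands were searched, the counts are small, and peaks shared by neighbouring members enter once.

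Other genes of the pathway were taken from 2 lists. Of 23 partners in secretion and at the surface, 19 were called in HFF1, 18 in HEK293T, 16 in GM12878 and 15 in K562, and 11 in all 4 lines, beside all-gene shares of 76.2%, 67.8%, 71.9%, 70.4% and 59.7% in that order. WLS, which carries WNT proteins to the surface, was called in HEK293T and HFF1 and had no promoter peak in the blood lines, as was APCDD1, a membrane inhibitor. RSPO2 and RSPO3, secreted enhancers of the signal, had no promoter peak in K562 and were called in the other 3 lines, the pattern of DKK1 and WIF1. FRZB, a relative of the SFRP genes, had none in GM12878. Of 22 genes of the signal chain inside the cell, 22 were called in HFF1, 21 in GM12878, 21 in K562 and 18 in HEK293T, and 17 in all 4 lines, beside the same all-gene shares. The difference between the lists was not tested. DVL1 and DVL2, which relay the signal from Frizzled, had no promoter peak in HEK293T, and TLE1, a co-repressor of TCF factors, had none in the blood lines. No gene of either list had promoter peaks in both replicates of 1 line and in no other library. RSPO4 had one in 1 HFF1 replicate alone.

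Promoters of the family are mostly CpG-rich, also at members called in 2 or 3 lines. CpG observed over expected, the number of CpG divided by that expected from the C and G content, was above 0.6 at 23 of 27 members (85.2%) and at 66.5% of 15322 promoters of all genes. Among genes called in fewer than 4 lines it was above 0.6 at 9 of 13 members (69.2%), against 34.9% of 5742 genes. It was above 0.6 at 3 of 3 members called in 2 lines (50.8% of such genes) and 5 of 6 in 3 lines (64.3%). The counts were 0 of 1 in 1 line (28.5%) and 1 of 3 in no line (15.5%). WNT2 had 1.12 and WNT9A 1.03, though called in 2 and 3 lines. WNT3A had 0.934 with 49 CpG in 300 bases and no peak in any library, whereas WNT8A (0.179) and WNT8B (0.256), also not called, had 4 CpG each, as the printed sequences of WNT3A and WNT8B show. WNT5B had 0.500 and SFRP2 0.553, and all 14 matched members called in 4 lines were above 0.6. These values belong to 1 RefSeq promoter per gene, whereas a call can come from a peak at another start site of that gene.

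**Figure D5:**
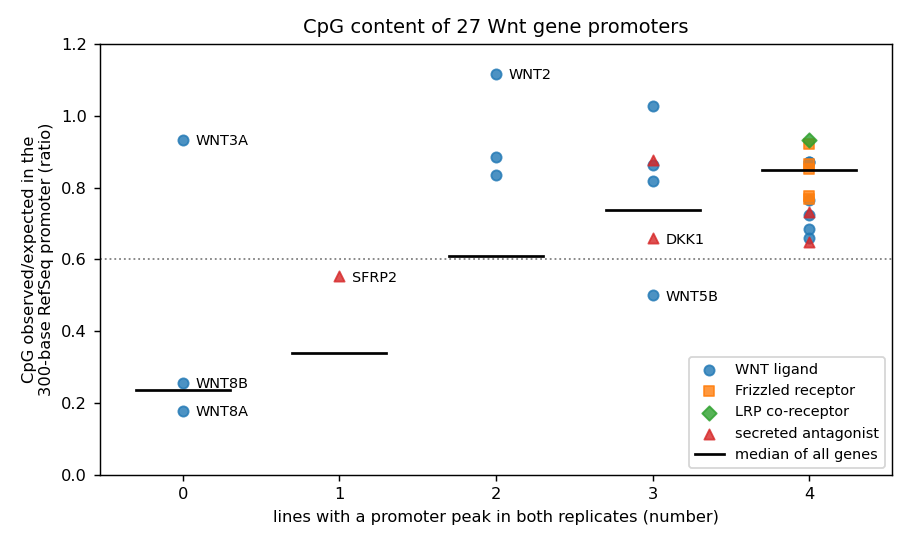
CpG observed over expected in the 300-base RefSeq promoter (vertical axis, ratio) against the number of lines with a promoter peak in both replicates (horizontal axis) for 27 members by role, with black bars for the median of all genes and a dotted line at 0.6. WNT3A lies at 0.934 among genes without a call, far above WNT8A and WNT8B, and members called in 2 lines lie above the all-gene median.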

How the data were processed

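Open chromatin was read from peak lists that the authors deposited, 1 per library of 8 human libraries, so replicates were not pooled; the mouse lists were not used here. Per the submitters' processing notes, cutadapt 3.2, Bowtie2 2.4.2, Picard and MACS2 2.2.7.1 were used and the human build is hg38; read shift and duplicate handling are not given in the sources used here. Each deposited peak carries a fold (ratio of summit to local background), −log10 p and −log10 q values, a score and a summit offset. The lowest −log10 q, 2.00 to 2.05, shows that peaks weaker than about that are not in these lists. Deposited fold values only describe or rank peaks within a list.

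From them were computed, with Python 3.11.15, numpy 2.4.6, pandas 2.3.3 and scipy 1.17.1, overlaps (1 bp or more) with windows of 1 kb and 50 kb around every GENCODE 44 start site. The pileup and local background were solved from fold and −log10 p, which succeeded for 100% of peaks, and the lowest background gives relative depth. Differences between lines were tested by eta squared with an exact one-sided permutation test over all pairings of the libraries, Benjamini-Hochberg adjusted over all genes that vary, with a threshold of 0.05, and the code was tested on simulated data. No interval for counting error was computed, since duplicates of a PCR without molecular identifiers are not separate molecules.

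Values in every library are given for members called in 1, 2 or 3 lines and, per role, for the member with most peaks within 50 kb in each line; members without a peak are named. Distal peaks are named by highest deposited fold per line. The values of WNT1, WNT3, WNT4 and WNT10A, and the printed sequences, were chosen after their values were seen. The members and the gene lists were chosen with earlier results of these data known. Alternatives were stricter peak lists, thinned pileups, other windows and overlaps, a replicate block and leaving out each library.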

Additional observations from a re-analysis of the deposited data

How the results depend on the processing

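The number of members called per line moved by over 1.5 times only at 15 in GM12878 and 19 in HFF1 with the 50000 strongest peaks of each library, and at 22 in HFF1 with thinned pileups. Members called in no line numbered 7 with the 50000 strongest peaks, 7 with the gene's 5′ end only, and 2 when either replicate sufficed. Members called in 1 line numbered 5 with the 50000 strongest peaks, 8 with thinning, 4 with overlap of at least 50% of the peak, 9 with the 5′ end only, 5 with 500 bp windows, 1 with 2 kb windows and 4 with either replicate. Members called in 2 lines numbered 5, 5 and 3 with the 5′ end only, 2 kb windows and either replicate, and 5 to 8 without 1 library; those called in all 4 lines numbered 11 with the 50000 strongest peaks and 11 with thinning. For covered promoter length, 2 members passed with the 50000 strongest peaks, 8 with 2 kb windows, 0 with thinning, 0 with the 5′ end only and 0 to 6 without 1 library. With the replicate number as a block, 0 passed for covered length, and the count for peaks within 50 kb stayed at 0. The block allows fewer pairings and so has a larger smallest p, so neither count shows whether members differ. Replicate numbers did not pair the libraries: differences between replicates correlated at -0.0143 to 0.0378 between lines. For peaks within 50 kb, 24 members passed with 100 kb windows and 38 by base pairs covered, which are finer values. Median distal peaks per member in GM12878, HEK293T, HFF1 and K562 were 3, 2, 3.75 and 2.5 in 25 kb and 11.25, 5.25, 14.25 and 7.75 in 100 kb. They were 3, 2 and 3.5 in GM12878, HFF1 and K562 with the 50000 strongest peaks, and 4.25, 4 and 3 with thinning. HFF1 had 6.75 with −log10 q of at least 5 and 6.5 with the 5′ end only, and HEK293T 3.25 with 50% overlap. The remaining 198 recomputed values for these counts stayed within 1.5 times or 1 SD. Requiring the replicates' promoter peaks to overlap each other was chosen after seeing the data and changed no count by over 1.5 times. The cause of these shifts was not tested, except that thinning and stricter lists hold fewer peaks.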
